A study of Mus musculus with 24 samples.

Results

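The genes described here are Fc receptors, paired immunoglobulin-like receptors and their signalling adaptors: Fcgr1, Fcgr2b, Fcgr3, Fcgr4, Fcer1g, Fcgrt, Pirb, Pilra, Lilrb4a and Tyrobp. They were taken by name from the table of raw counts, with Ensembl identifiers matched to symbols by GENCODE M21. Of the 10 genes, 9 had a row among the 43629 genes of the table, and those 9 were all among the 10578 genes with enough counts to be tested. The cells were a mouse acute myeloid leukaemia line driven by the MLL-AF9 fusion and carrying Cas9, grown in culture. Guides were delivered by lentivirus, with the multiplicity of infection kept at 0.3. Selection with 2 ug/ml puromycin began at 48 hours and lasted 72 hours, and RNA was taken on day 9 after infection. There were 24 libraries in 8 groups of 3. The control group received a non-targeting guide (NT), a second group a guide to DOT1L, and 6 further groups received guide 1 or guide 2 to MLLT10, MLLT1 or MLLT6. DOT1L is a histone methyltransferase, and the products of the other targeted genes are known partners of it, named in the design as members of the DOTCOM complex. The control and DOT1L groups were each labelled with a single guide, so effects of a guide and of its target gene cannot be told apart there. All groups shared the fusion, Cas9, infection and puromycin. The labels do not say whether replicates were separate cultures, and p-values then measure only the spread between these libraries, which may be technical.

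Fc receptors bind the constant part of antibodies and let myeloid cells take up, or respond to, whatever an antibody has coated. The activating receptors signal through small partner chains that carry an activation motif (ITAM) and recruit the kinase Syk, whereas inhibitory receptors carry an inhibitory motif (ITIM) in their own tail and recruit phosphatases such as those encoded by Ptpn6 and Inpp5d. Paired receptors are families in which activating and inhibitory members have closely related outer parts, and many of them are found on granulocytes, monocytes and macrophages.

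Library totals ranged from 2403044 to 7415397 counts. Levels are given as counts per 1000000 counts of a library (CPM) after TMM scaling. The targeted transcripts were measured as a check on the labels, although a Cas9 cut need not lower the level of a transcript. Dot1l was lower in the DOT1L libraries (log2 fold change -0.71 ± 0.13, SE; adjusted p = 0.00019). Mllt10 and Mllt6 had values of -0.76 ± 0.21 and -0.90 ± 0.19 in their own knockouts and did not pass the test (adjusted p = 0.14 and 0.50). Their levels nevertheless lay below those of every control library. Mllt10 measured 7.98 to 12.1 CPM against 14.7 to 19.05 CPM in the control, and Mllt6 14.9 to 23.3 CPM against 30.1 to 42.2 CPM. Mllt1 was not lower in the libraries labelled MLLT1 (0.62 ± 0.22, adjusted p = 0.15), so its transcript gives no check on that label. All 10 genes of a list checking for myeloid leukaemia, such as Ptprc, Itgam, Mpo and Hoxa9, were detected. The mean Pearson r of control replicate 1 with its own group, across genes, was 0.953. It was lower only for the libraries of MLLT1 guide 1 replicate 1 (0.943) and MLLT6 guide 1 replicate 3 (0.950). Ranges of levels include both. The calls and fold changes of the MLLT1 and MLLT6 groups that rest on them are also given without both, by value, by range or by the largest move.

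Across the libraries, 8 of the 9 measured genes rose in the DOT1L knockout, against 11.2% of all tested genes that were called higher and 10.7% called lower. The inhibitory paired receptors Pilra and Pirb rose by 27.8-fold and 9.19-fold, the activating Fc receptors Fcgr1 and Fcgr4 by 7.75-fold and 4.53-fold, and the 2 adaptors and the 2 remaining Fc-gamma receptors by 1.38-fold to 2.05-fold. Pilra, Pirb, Fcgr1 and Fcgr4 had only 39, 40, 18 and 64 counts over the 3 control libraries. These 4 genes thus had little room to be called lower, and the sizes of their fold changes rest on low control levels. Fcgrt, at the limit of detection, was not called. Genes are said to be called, or to rise or fall, where the Benjamini-Hochberg adjusted p of edgeR's quasi-likelihood test was under 0.05. The median log2 fold change of the 9 genes was 1.04, and that of all tested genes was 0.0067. For all 8 called genes the 3 DOT1L libraries lay above the 3 control libraries without overlap. The share of all tested genes whose groups did not overlap was not counted, here or for the other knockouts. Statements that groups do or do not overlap therefore describe these libraries and add no support to a call. In bulk RNA, more cells that carry a transcript and more of the transcript per cell cannot be told apart.

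**Figure D1:**
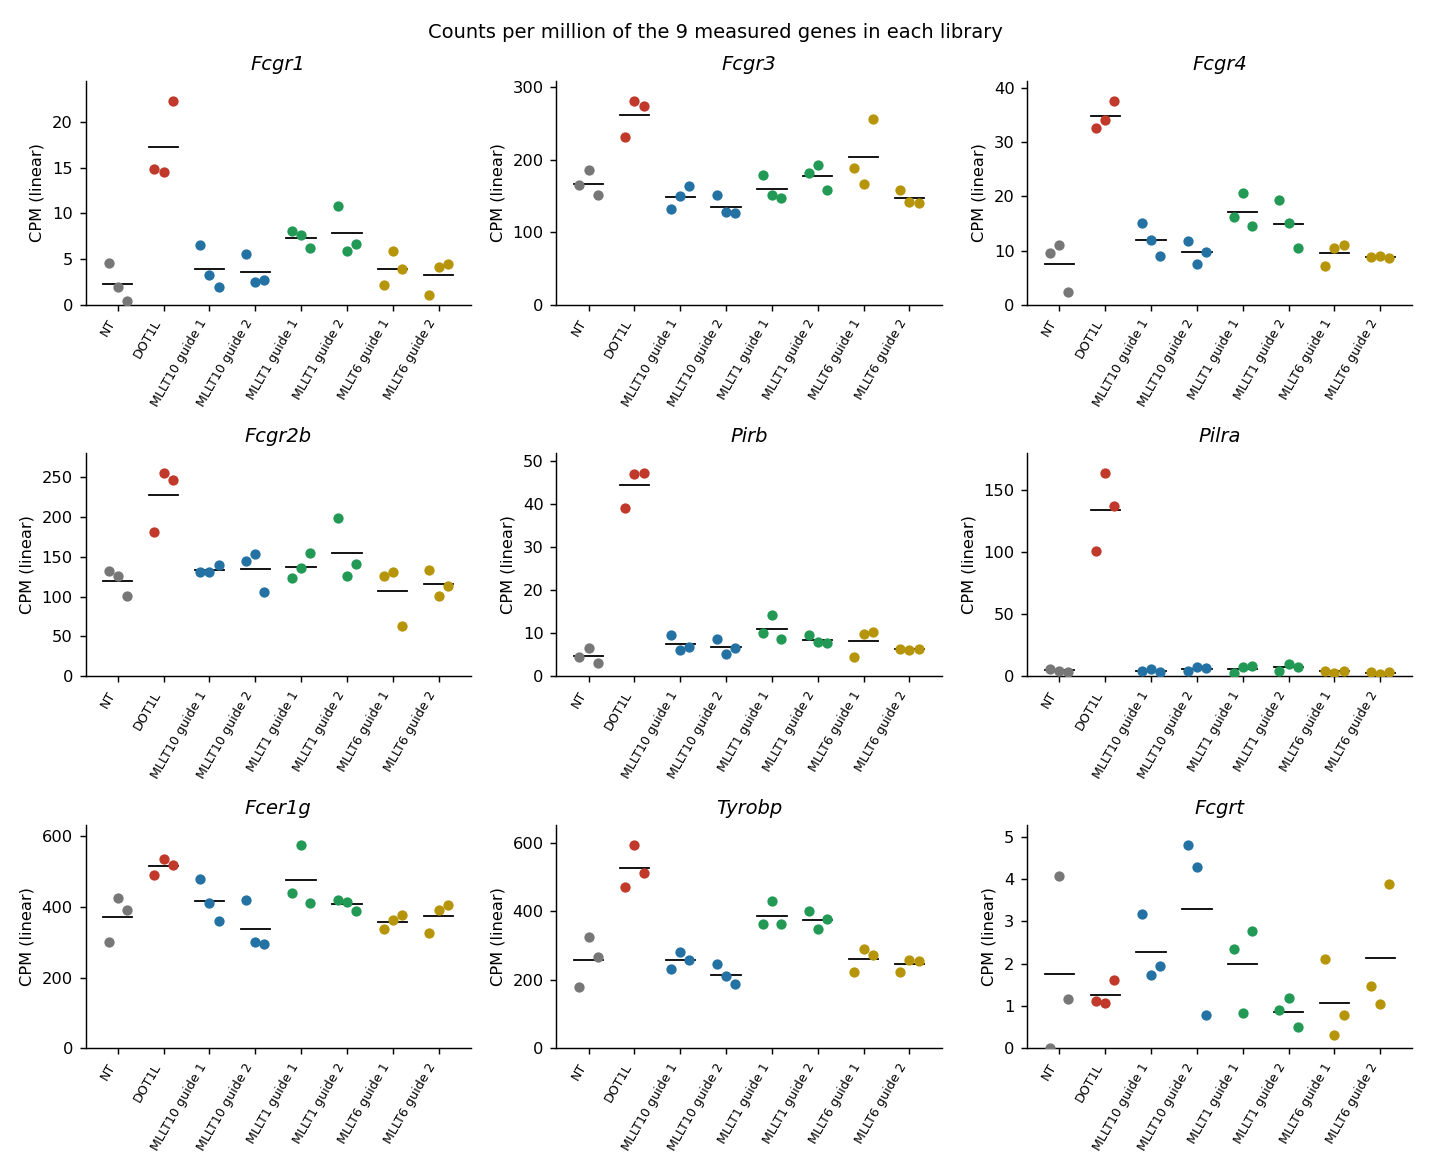
Level in CPM (linear axis) of the 9 measured genes in each of the 24 libraries, as points by group, with the group mean of 3 libraries as a black line. The 3 DOT1L libraries are above the 3 control libraries for 8 genes, and the Fcgrt panel holds values between 0 and 4.81 CPM.

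The promoters of the 4 genes with the largest changes are shown because these genes rose together and because all 4 windows hold the letters GAGGAA. Since the letters were a reason for the choice, their presence in all 4 is not a finding. GAGGAA is the core bound by PU.1, the product of Spi1 and a regulator of myeloid genes. Each sequence is the stretch upstream of the annotated gene start in RefSeq's GRCm38.p6 promoters (GRCm38 is the assembly that mm10 names), 5′ to 3′ on the gene's strand, with motif matches in capitals. A match on the other strand appears as its reverse complement, TTCCTC.
Pilra, chr5:137836282-137836528, minus strand: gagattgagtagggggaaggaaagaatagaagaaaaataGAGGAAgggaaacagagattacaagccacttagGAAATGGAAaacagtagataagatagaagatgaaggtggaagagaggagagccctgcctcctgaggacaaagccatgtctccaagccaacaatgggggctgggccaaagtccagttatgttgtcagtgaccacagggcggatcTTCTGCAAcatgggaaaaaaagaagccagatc
Pirb, chr7:3720392-3720632, minus strand: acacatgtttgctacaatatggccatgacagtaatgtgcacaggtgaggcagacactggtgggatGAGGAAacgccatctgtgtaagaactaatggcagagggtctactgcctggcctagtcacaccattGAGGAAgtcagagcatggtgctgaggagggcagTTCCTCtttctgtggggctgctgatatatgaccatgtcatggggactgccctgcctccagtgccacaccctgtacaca
Fcgr1, chr3:96293970-96294219, minus strand: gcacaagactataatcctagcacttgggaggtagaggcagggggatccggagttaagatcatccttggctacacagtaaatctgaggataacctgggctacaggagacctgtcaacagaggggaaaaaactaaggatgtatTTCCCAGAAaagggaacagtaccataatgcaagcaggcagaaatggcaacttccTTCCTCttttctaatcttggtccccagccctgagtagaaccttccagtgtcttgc
Fcgr4, chr1:171018676-171018919, plus strand: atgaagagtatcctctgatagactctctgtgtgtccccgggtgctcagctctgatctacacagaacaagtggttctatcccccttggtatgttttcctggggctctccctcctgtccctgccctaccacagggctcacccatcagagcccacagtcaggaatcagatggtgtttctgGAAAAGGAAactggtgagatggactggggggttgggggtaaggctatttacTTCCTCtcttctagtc

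In these windows Pirb held 3 matches to GAGGAA, and Pilra, Fcgr1 and Fcgr4 held 1 each. Of the 8 genes with a promoter entry, 5 held GAGGAA on either strand in the 250 bases before the start, the fifth being Fcgr3, and 23.3% of 32817 mouse promoters did. The C/EBP-like pattern TTGCNNAA was found for Pilra, Fcgr3 and Fcgrt, and 9.57% of promoters held it. The palindromic pattern TTCNNNGAA was found for Fcgr1 alone among the 8, and 7.01% of promoters held it. The interferon-response-like pattern GAAANNGAA was found for Fcgr4 and Pilra, against 7.12% of promoters. None of the 4 patterns, searched on both strands, was found in the windows of Fcgr2b and Fcer1g, which were also called higher in the DOT1L knockout. GAGGAA and the interferon-response-like pattern can share bases, and the matches in capitals above do not overlap. A match is a description of the letters, and binding was not measured.

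Among the activating Fc receptors, Fcgr1 encodes the high-affinity receptor for IgG and lies on chromosome 3 from 96282909 to 96293969 (mm10). Its control libraries held 4.53, 1.88 and 0.389 CPM and its DOT1L libraries 14.9, 14.6 and 22.3 CPM. The control values rest on 18 counts in all, and replicate 3 on 1 count. Every DOT1L library was above every control library, and the log2 fold change was 2.95 ± 0.56 (adjusted p = 0.00038). Fcgr4 encodes another activating IgG receptor of myeloid cells (chromosome 1, 171018920 to 171029761). It measured 9.48, 10.9 and 2.33 CPM in the control libraries and 32.7, 34.1 and 37.6 CPM in the DOT1L libraries. The groups did not overlap, control replicate 3 was again the lowest, and the log2 fold change was 2.18 ± 0.35 (adjusted p = 5.0e-05).

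Fcgr3, the activating low-affinity IgG receptor, lies beside Fcgr4 (chromosome 1, 171051174 to 171064935) and was already abundant in the control libraries, at 165, 185 and 151 CPM. The DOT1L libraries held 231, 280 and 274 CPM, all above the control libraries. The log2 fold change was 0.65 ± 0.16 (adjusted p = 0.0042), against values above 2 for Fcgr1 and Fcgr4.

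The inhibitory IgG receptor Fcgr2b (chromosome 1, 170958617 to 170976547) measured 132, 126 and 101 CPM in the control libraries and 181, 255 and 246 CPM in the DOT1L libraries. The groups were apart, with DOT1L replicate 1 the lowest of its group. The log2 fold change was 0.93 ± 0.23 (adjusted p = 0.0044). Fcgr2b, Fcgr3 and Fcgr4 are close relatives in sequence, and how the counting treated reads that match more than 1 of them is not given in the sources used here.

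Pirb encodes the inhibitory receptor for MHC class I molecules of the paired Ig-like receptor family (chromosome 7, 3711409 to 3720391). Its levels were 4.53, 6.57 and 3.11 CPM in the control libraries, and in the DOT1L libraries 39.0, 46.9 and 47.2 CPM. Every DOT1L library was above every control library, and the log2 fold change was 3.20 ± 0.32 (adjusted p = 7.1e-08). Pirb has near-identical activating relatives (the Pira genes), so reads could have been divided between them.

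Pilra, the inhibitory member of the pair of PILR receptors (chromosome 5, 137821952 to 137836281), had the largest change of the 9 genes. It measured 5.77, 4.69 and 3.89 CPM in the control libraries and 100, 163 and 137 CPM in the DOT1L libraries, a log2 fold change of 4.80 ± 0.37 (adjusted p = 1.2e-09). The groups were far apart, with DOT1L replicate 1 the lowest of its group. The exons of Pilra share 468 of their 3090 bases with Zcwpw1 on the opposite strand, but Zcwpw1 had 10 counts over all 24 libraries. The activating relatives of Pilra moved with it: Pilrb1 went from 1.40 ± 0.94 to 55.1 ± 9.0 CPM and Pilrb2 from 1.83 ± 1.73 to 101 ± 19 CPM (mean ± SD, n = 3 each). Their log2 fold changes were 5.32 ± 0.48 and 5.69 ± 0.46 (adjusted p = 1.4e-08 and 2.4e-09). Reads shared among these 3 genes cannot be told apart here.

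The adaptor Fcer1g, the common gamma chain through which Fcgr1, Fcgr3 and Fcgr4 signal, lies on chromosome 1 from 171229572 to 171234365. It measured 300, 425 and 390 CPM in the control libraries and 491, 535 and 518 CPM in the DOT1L libraries. The groups did not overlap, but the log2 fold change of 0.47 ± 0.17 was close to the threshold (adjusted p = 0.046). In 8 of 13 alternative analyses it no longer passed, with values between 0.32 and 0.56 and adjusted p up to 0.22. Each of the 3 DOT1L libraries, and control replicates 1 and 3, ended the call when left out.

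Tyrobp, the adaptor of many activating paired receptors (chromosome 7, 30413760 to 30417585), had levels of 179, 325 and 266 CPM in the control libraries and of 473, 595 and 514 CPM in the DOT1L libraries. The groups were apart, and the log2 fold change was 1.04 ± 0.18 (adjusted p = 0.00011). It changed by more than Fcer1g in these libraries, which shows in their ratio within a library. Fcer1g had 1.68, 1.31 and 1.47 counts for each Tyrobp count in the control libraries and 1.04, 0.899 and 1.01 in the DOT1L libraries. The ranges did not overlap, and the ratio does not depend on how libraries were scaled.

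Fcgrt encodes the neonatal Fc receptor, which carries IgG back to the cell surface and pairs with B2m (chromosome 7, 45092990 to 45103851). Its control libraries held 0, 4.07 and 1.17 CPM and its DOT1L libraries 1.11, 1.07 and 1.60 CPM, from 16 and 15 counts in all. The groups overlapped, and a difference was not detectable at this depth (-0.50 ± 0.84, adjusted p = 0.74). The partner B2m was far above it at 587 ± 65 CPM in the control and 910 ± 124 CPM in the DOT1L libraries, and did not pass the test (0.63 ± 0.27, adjusted p = 0.099).

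Lilrb4a, an inhibitory receptor, had no row under its GENCODE M21 identifier and has no value here. Another row, ENSMUSG00000062593, spans that locus (chromosome 10, 51480612 to 51496613, with Lilrb4a from 51490956 to 51496611). It may be an older identifier of Lilrb4a, which the sources used here do not settle. It shares 1846 of its 1990 exon bases with Lilrb4a and 122 with Lilr4b, and its reads cannot be divided between those genes. The row was not counted among the 9. That row held 45.8, 41.6 and 23.7 CPM in the control libraries and 91.8, 106 and 99.4 CPM in the DOT1L libraries. The groups did not overlap, and its log2 fold change was 1.42 ± 0.29 (adjusted p = 0.00072).

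**Figure D2:**
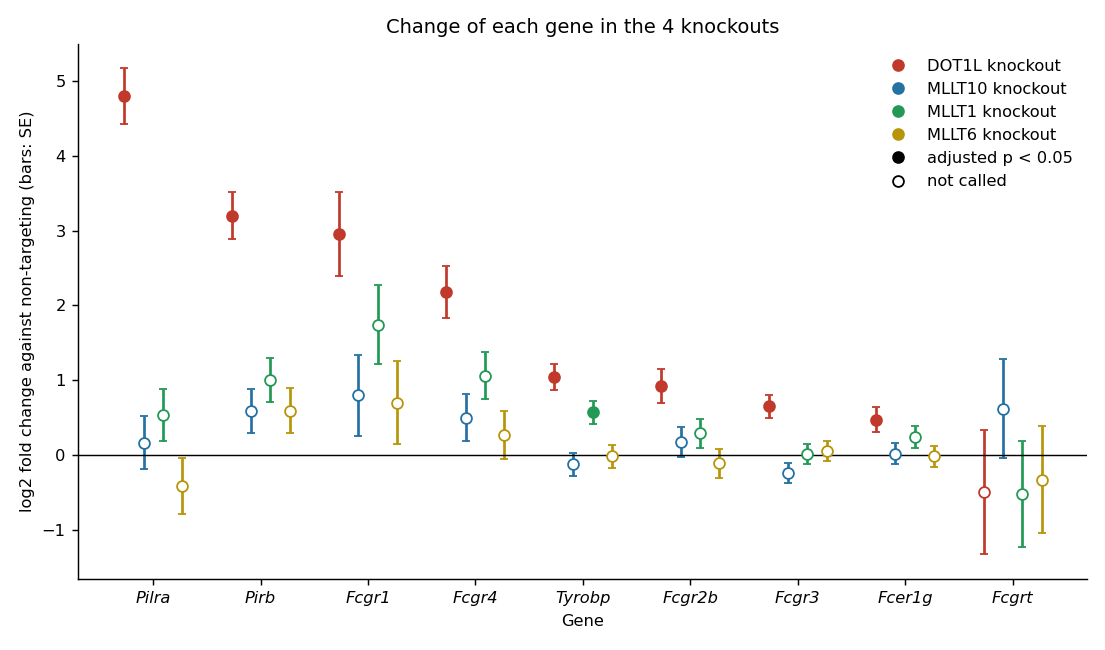
Log2 fold change against the non-targeting control (vertical axis) for each gene and knockout, with bars of 1 standard error and filled points for genes called at an adjusted p under 0.05. Filled points are 8 genes in the DOT1L knockout and Tyrobp in the MLLT1 knockout.

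Levels of different genes were compared per kilobase of exon. In the control libraries the adaptors stood highest, Fcer1g at 426 and Tyrobp at 385 CPM per kilobase with overlapping ranges, followed by Fcgr3 at 96.2 and Fcgr2b at 20.7. Fcgr4 followed at 6.04, and Pilra, Pirb, Fcgr1 and Fcgrt lay between 0.83 and 1.55, each overlapping its neighbour in the order. In the DOT1L libraries Tyrobp (790) was above Fcer1g (589) without overlap. Fcgr3 came next at 151 CPM per kilobase. Pilra went from rank 6 in the control to rank 4, at 43.2 CPM per kilobase and overlapped Fcgr2b at 39.2. Below them came Fcgr4 at 27.7, Pirb at 9.93, Fcgr1 at 6.66 and Fcgrt at 0.60, with no overlap between neighbours. With the longest transcript as the length, Fcgr2b (64.1) was above Pilra (51.8) in the DOT1L libraries, and Fcgrt (0.99) above Fcgr1 (0.88) in the control. The 9 genes together took 0.0798% to 0.111% of the counts of a control library and 0.137% to 0.166% of a DOT1L library.

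**Figure D3:**
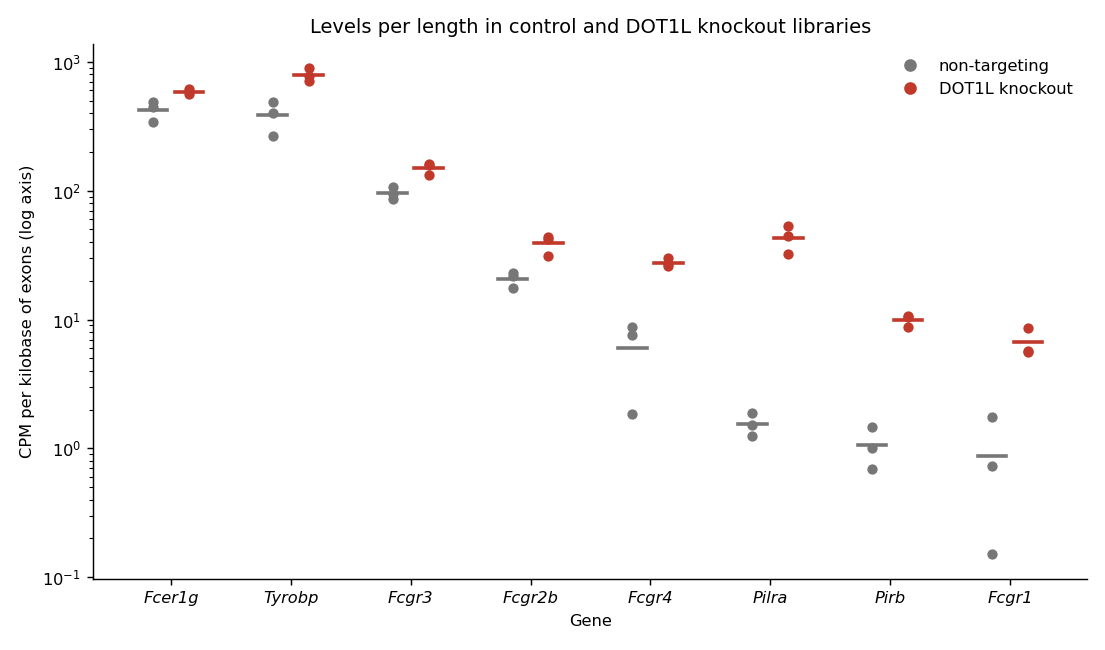
Levels per kilobase of merged exons on a log axis for 8 genes in the 3 control and 3 DOT1L libraries (points), with group means as lines and Fcgrt left out because a control library held 0. Pilra moves from 1.55 to 43.2 CPM per kilobase. At the top, Fcer1g and Tyrobp overlap in the control, and Tyrobp lies above Fcer1g in the DOT1L libraries.

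In the knockout labelled MLLT1, Tyrobp was the 1 gene of 9 called, against 2.58% of all tested genes called in either direction. Over the 6 MLLT1 libraries Tyrobp ranged from 350 to 431 CPM with a median of 371. All 6 were above the highest control library, and the log2 fold change was 0.57 ± 0.15 (adjusted p = 0.048). This call was marginal: leaving out control replicate 1 or 3, or any single MLLT1 library, ended it (adjusted p between 0.052 and 0.18), and without both libraries that stood apart the value was 0.59 ± 0.16 (adjusted p = 0.048).

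The receptors that changed most in the DOT1L knockout had positive values in the MLLT1 libraries that did not pass the test. Fcgr1 ranged from 5.93 to 10.8 CPM with a median of 7.17, and all 6 libraries lay above the control (1.74 ± 0.53, adjusted p = 0.087). Pirb ranged from 7.68 to 14.2 CPM with a median of 9.13, again above every control library (1.01 ± 0.30, adjusted p = 0.074). For Fcgr4 the range was 10.4 to 20.6 CPM with a median of 15.6, and it overlapped the control (1.06 ± 0.31, adjusted p = 0.077). Without both libraries that stood apart, Fcgr1, Pirb and Fcgr4 had values of 1.71 ± 0.56, 1.03 ± 0.30 and 1.08 ± 0.33 (adjusted p = 0.11, 0.069 and 0.082). Fcgr1 and Fcgr4 passed when genes with low counts were kept (adjusted p = 0.0061 and 0.024) and by DESeq2 (0.037 and 0.033). Pilra, the gene with the largest change in the DOT1L knockout, ranged from 3.03 to 9.88 CPM with a median of 7.54 (0.53 ± 0.35, adjusted p = 0.51, and 0.67 ± 0.33, adjusted p = 0.32, without both libraries). Its relatives Pilrb1 and Pilrb2 rose to 5.97 ± 0.96 and 8.43 ± 1.40 CPM (SD, n = 6), both with a log2 fold change of 2.12 (SE 0.48 and 0.45, adjusted p = 0.015 and 0.0099), and of 2.09 and 2.07 without both libraries (adjusted p = 0.022 and 0.016). Fcer1g, Fcgr2b and Fcgr3 had values of 0.24 ± 0.14, 0.28 ± 0.20 and 0.01 ± 0.14 (adjusted p of 0.45 or above), and of 0.27 ± 0.15, 0.32 ± 0.17 and -0.04 ± 0.12 without both libraries (adjusted p of 0.35 or above).

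In the MLLT10 knockout 0 of 9 genes were called, against 0.473% of all tested genes. An unadjusted p under 0.05 was found for 0 of 9, and for 1013 of all 10578 tested genes. The values ranged from -0.24 ± 0.14 for Fcgr3 to 0.79 ± 0.54 for Fcgr1. Tyrobp lay between 187 and 281 CPM with a median of 239, and Pilra between 3.24 and 7.57 CPM with a median of 5.31, both overlapping the control. In the MLLT6 knockout 0 of 9 were called, as were 0.0% of all genes by edgeR, although 727 genes had an unadjusted p under 0.05. DESeq2 also called 0 genes there. The values of the 9 genes lay between -0.42 ± 0.38 for Pilra and 0.70 ± 0.56 for Fcgr1, and all 9 overlapped the control. With the libraries that stood apart left out they lay between -0.50 ± 0.37 for Pilra and 0.71 ± 0.60 for Fcgr1, and 0 were called.

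By single guide, 0 of 9 genes were called in any of the 6 comparisons with the control. The share of all genes called was 0.17% for MLLT10 guide 1, 0.303% for MLLT10 guide 2, 1.25% for MLLT1 guide 1, 1.22% for MLLT1 guide 2 and 0.0% for both MLLT6 guides. Of the 9 genes, 5 had an unadjusted p under 0.05 with MLLT1 guide 1 and 4 with MLLT1 guide 2. Of all 10578 tested genes, 1402 and 1278 did. Between the 2 guides of a gene, 0 of 9 genes and 0.0% of all genes were called by edgeR for each of MLLT10, MLLT1 and MLLT6. The unadjusted p was under 0.05 for 182, 222 and 983 genes, and DESeq2 called 0, 0 and 10. Without both libraries that stood apart, 0 of 9 genes were again called in these 9 comparisons. The largest moves were 0.28 for Pilra with MLLT1 guide 1 and 0.27 for Fcgr2b with MLLT6 guide 1, and between guides 0.28 for the same genes.

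MLLT6 guide 1 replicate 3 departed from the other libraries in 2 Fc receptor genes of chromosome 1, in opposite directions. Its Fcgr2b level, 63.2 CPM, was the lowest of all 24 libraries. Its Fcgr3 level, 256 CPM, was the highest outside the DOT1L group. This library held 4.05 Fcgr3 counts for each Fcgr2b count, and the other 23 lay between 0.826 and 1.53. Without both libraries that stood apart, the MLLT6 value moved from -0.11 to 0.02 for Fcgr2b and from 0.05 to -0.05 for Fcgr3, none of them called.

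**Figure D4:**
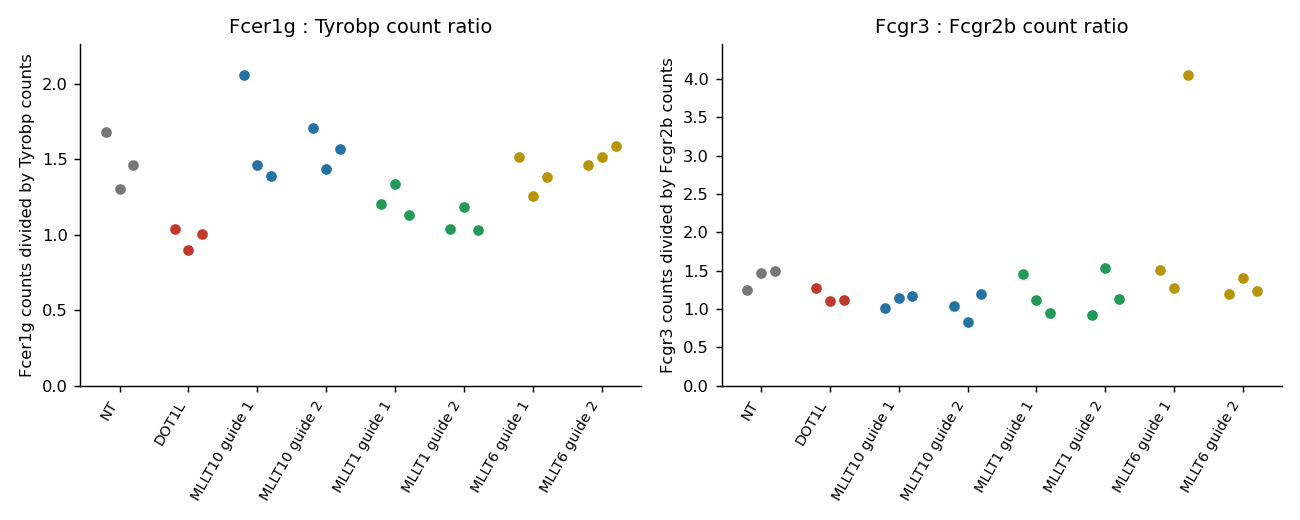
Ratio of raw counts within each library (linear axis) for Fcer1g over Tyrobp, left, and Fcgr3 over Fcgr2b, right, by group. The DOT1L libraries have the 2 lowest Fcer1g to Tyrobp ratios and lie at or below 1.04, and a single MLLT6 guide 1 library stands at 4.05 for Fcgr3 over Fcgr2b.

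The knockouts were also tested directly against each other. The MLLT10 libraries were lower than the DOT1L libraries in 8 of 9 genes, against 12.6% of all genes called lower. The differences ran from -0.45 ± 0.14 for Fcer1g to -4.64 ± 0.27 for Pilra. The MLLT6 libraries were lower in the same 8 genes, with 15.3% of all genes called lower, from -0.49 ± 0.14 for Fcer1g to -5.22 ± 0.29 for Pilra. The MLLT1 libraries were lower in 7 genes (11.1% of all genes called lower), from -0.47 ± 0.15 for Tyrobp to -4.27 ± 0.26 for Pilra, and Fcer1g did not pass (-0.23 ± 0.14, adjusted p = 0.32). Without DOT1L replicate 3, or without MLLT1 guide 2 replicate 2, 4 genes stayed called: Pilra, Pirb, Fcgr3 and Fcgr4. Without both libraries that stood apart the same 8 genes were called in MLLT6 and the same 7 in MLLT1. Pilra then stood at -5.30 ± 0.29 and -4.13 ± 0.26, Fcer1g at -0.51 ± 0.15 in MLLT6, and Tyrobp at -0.45 ± 0.15 in MLLT1. These tests share the DOT1L libraries.

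Among the MLLT knockouts, Tyrobp was called between MLLT1 and each of the others. It was lower in MLLT10 than in MLLT1 (-0.70 ± 0.12, adjusted p = 0.0014), the 1 gene of 9 called where 2.68% of all genes were. It was higher in MLLT1 than in MLLT6 (0.59 ± 0.12, adjusted p = 0.0052), again the 1 gene of 9, against 4.46% of all genes. Without both libraries that stood apart Tyrobp was called in both comparisons (0.63 ± 0.14, adjusted p = 0.0099, against MLLT6), and Pilra was also higher in MLLT1 than in MLLT6. Its value was 1.17 ± 0.29 (adjusted p = 0.024), and with all libraries it was 0.95 ± 0.28 (adjusted p = 0.053). The Tyrobp levels of the 6 MLLT1 libraries did not overlap those of either other knockout. Fcgr1 levels also did not overlap between MLLT1 and MLLT6 (1.04 ± 0.37, adjusted p = 0.11). The ratio of Fcer1g to Tyrobp counts was 1.03 to 1.33 in the MLLT1 libraries, 1.39 to 2.06 in the MLLT10 libraries and 1.26 to 1.59 in the MLLT6 libraries. Between MLLT10 and MLLT6, 0 of 9 genes were called, against 0.766% of all genes, and 1 of 9 had an unadjusted p under 0.05. That p was under 0.05 for 5 of 9 between MLLT10 and MLLT1 and 6 of 9 between MLLT1 and MLLT6. Of all 10578 tested genes, 1104, 1372 and 2103 had such a p in these 3 comparisons.

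Related genes were described by lists. Of 40 other paired and adaptor-coupled receptors listed, 34 were in the table and 20 were tested. Of these 20, 12 were called higher and 0 lower in the DOT1L knockout, where 11.2% and 10.7% of all tested genes were. The list's median log2 fold change was 1.42, beside 0.0067 for all tested genes. Besides Pilrb1 and Pilrb2 they included Trem3, which signals through Tyrobp, at 10.5 ± 3.0 CPM in the control and 175 ± 7 CPM in the DOT1L libraries (4.06 ± 0.31, adjusted p = 8.3e-10). Clec5a, another Tyrobp-coupled receptor, went from 1.92 ± 1.95 to 61.0 ± 10.2 CPM (5.02 ± 0.49, adjusted p = 5.2e-08). Genes this near 0 in the control could hardly have been called lower, so the filter on low counts favours calls of higher among them. In the MLLT1 knockout, where 2.58% of all genes were called, 4 of the 20 rose: Pilrb1, Pilrb2, Siglecf (1.20 ± 0.31, adjusted p = 0.033) and Cd33 (0.78 ± 0.16, adjusted p = 0.0071). Cd33, a sialic-acid-binding receptor, stood at 35.4 ± 0.4 CPM in the control and 35.8 ± 6.7 CPM in the DOT1L libraries (0.01 ± 0.18, adjusted p = 0.99). Trem3 was the 1 gene of the list called in the MLLT10 knockout (1.39 ± 0.27, adjusted p = 0.015; 0.473% of all genes), and 0 were called in the MLLT6 knockout. Without control replicate 3, 0 genes of this list were called in MLLT1 and 0 in MLLT10, and without control replicate 2 the counts were 2 and 0. Leaving out the libraries that stood apart ended the Siglecf call in MLLT1 and gave one in MLLT10.

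Of 4 tested genes among other Fc receptors and partners, 0 were called in any knockout against the control. Of all tested genes, 11.2% were called higher and 10.7% lower in DOT1L. In either direction 2.58% were called in MLLT1, 0.473% in MLLT10 and 0.0% in MLLT6. With 4 genes, a count of 0 is not a result about this list. B2m was lower in the MLLT10 and MLLT1 libraries than in the DOT1L libraries (-0.71 ± 0.23 and -0.88 ± 0.22, adjusted p = 0.024 and 0.0061), and against the control it passed in the DOT1L knockout when genes with low counts were kept (adjusted p = 0.012) and when only those groups were fitted (adjusted p = 0.013). Fcer1a, the binding chain of the IgE receptor that also uses Fcer1g, had 0 counts in every library, which allows up to 1.25 CPM in the shallowest library and 0.405 CPM in the deepest (3 counts, counting error only). Its partner Ms4a2 was detected at 6.14 ± 1.73 CPM in the control and 9.22 ± 4.30 CPM in the DOT1L libraries (0.55 ± 0.45, adjusted p = 0.44).

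Among 35 tested genes of the signalling below ITAM and ITIM motifs, 11 were called higher and 3 lower in the DOT1L knockout, with a median log2 fold change of 0.35. Over all tested genes 11.2% were called higher and 10.7% lower, so the share called lower was no larger in this list. The kinases Syk (0.55 ± 0.14, adjusted p = 0.0042) and Lyn (0.87 ± 0.15, adjusted p = 0.00012) rose, as did the exchange factors Vav1 (0.96 ± 0.17, adjusted p = 0.00014) and Rasgrp4 (2.10 ± 0.31, adjusted p = 1.9e-05). The scaffold Lat2 fell from 195 ± 37 to 55.0 ± 8.0 CPM (-1.83 ± 0.22, adjusted p = 1.1e-06), and the lipid phosphatase gene Inppl1 fell in both the DOT1L (-1.56 ± 0.36, adjusted p = 0.0025) and MLLT1 knockouts (-1.28 ± 0.29, adjusted p = 0.016). Of the phosphatases recruited by ITIMs, Ptpn6 rose by 0.75 ± 0.27 (adjusted p = 0.049), and Inpp5d had a value of 0.15 ± 0.17 (adjusted p = 0.59). Inppl1 was the 1 gene of the 35 called in the MLLT1 knockout, a share near the 2.58% of all genes, and 0 were called in MLLT10 or MLLT6. Without control replicate 2 or 3 its MLLT1 call was lost.

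Of 10 tested regulators of these genes, the DOT1L libraries were higher in 7 and lower in 1, against 11.2% and 10.7% of all tested genes, with a median log2 fold change of 0.90. The share called lower was thus near that of all genes. Spi1 went from 127 ± 31 to 330 ± 26 CPM (1.38 ± 0.23, adjusted p = 9.8e-05), and Cebpe (1.34 ± 0.25, adjusted p = 0.0003) rose with it. Irf8, a factor of the monocyte and dendritic cell lineages, fell from 98.8 ± 17.2 to 29.7 ± 8.4 CPM (-1.75 ± 0.26, adjusted p = 2.8e-05). Cebpe was the 1 regulator called in the MLLT1 knockout (0.83 ± 0.22, adjusted p = 0.044; 2.58% of all genes), and 0 were called in MLLT10 or MLLT6. Its call was lost without control replicate 2 or 3, replicate 1 or 2 of either MLLT1 guide, or both libraries that stood apart.

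Markers of neutrophils moved with these genes in the DOT1L knockout, and those of other mature myeloid cells went both ways or fell. All 14 neutrophil markers rose in the DOT1L knockout. For this list and the marker lists below, 11.2% of all tested genes were called higher in that knockout and 10.7% lower. Retnlg, at 0 in the control, could not have been called lower, and any other marker near 0 there could hardly have been. The summed level of the 14 markers was 1133 to 1476 CPM in the control and 95440 to 109700 CPM in the DOT1L libraries. The sums were 2572 to 3189 CPM in MLLT1, where 9 of 14 rose, against 2.58% of all tested genes called in either direction. They were 2107 to 3045 CPM in MLLT10, where 5 rose, against 0.473% of all tested genes, while 0 of the 9 receptor and adaptor genes were called. In MLLT6 the sum was 990.5 to 2020 CPM, and 0 markers were called, as were 0.0% of all tested genes. Retnlg was at 0 there and in the control. Of 8 tested monocyte and macrophage markers 3 rose and 2 fell in the DOT1L knockout, with summed levels of 4133 to 6438 CPM in the control and 5606 to 7609 CPM in the DOT1L libraries. Of these markers, C1qa, C1qb and C1qc were at 0 in all libraries. Of 3 tested dendritic cell markers 0 rose and 2 fell in the DOT1L knockout, and the summed level of their list went from 273.3 to 391.9 CPM down to 47.63 to 85.83 CPM. Of 6 tested mast cell and basophil markers 0 rose and 3 fell. Their list summed to 336.9 to 403.9 CPM in the control and 283.7 to 325.5 CPM in the DOT1L libraries, with Fcer1a, Cma1, Tpsb2 and Prss34 at 0 in all libraries. The 8 NK cell markers summed to 129.5 to 186.1 CPM in the control and 331.4 to 432.9 CPM in the DOT1L libraries. Ncr1 and Gzmb were at 0 in all libraries, and Nkg7, the 1 marker tested, rose (1.29 ± 0.25, adjusted p = 0.0005). T cell markers summed to at most 22.95 CPM in any library, with Cd3e, Cd247, Cd4 and Cd8a at 0 in all, and B cell markers to at most 6.201 CPM, with Cd79a and Ms4a1 among those at 0. The part that a changed mix of cell types or maturation states had in the Fc and paired receptor values was not tested.

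Over the 24 libraries, log2 CPM of Fcgr1 was most like that of Fcgr4 (Pearson r = 0.91), and Fcgr4 was next most like Pirb (0.91). Over the 21 libraries outside the DOT1L group these were 0.84 and 0.86. The genes most like Pilra were C5ar1, Ifit1bl2 and Adpgk (0.96 for the first), but over the 21 libraries C5ar1 stood at 0.46. For Pirb they were Lcn2, Nfkbia and Vsir, with 0.95 for Lcn2 over 24 libraries and 0.75 over 21. Tyrobp was most like Lst1 (0.88), Fcer1g most like Cyba (0.87), Fcgr2b most like Kctd20 (0.93) and Fcgr3 most like Lonp2 (0.87). Fcgrt, on few counts, was most like Napa (0.68). Among the 28 pairs of the 8 genes other than Fcgrt, the median r was 0.685 over 24 libraries and 0.253 over 21. These correlations describe libraries that share groups and depth, and no test was made of them.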

How the data were processed

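RNA was sequenced from 24 libraries. The authors deposited whole-number counts of reads per gene, not normalized, in a table with 43629 rows of Ensembl identifiers. The submitters' processing notes say that bcl2fastq, HISAT2, HTSeq and DESeq2 were used with mm10. No source used here gives their versions, the annotation or the strand setting, and overlapping or antisense genes may therefore hold each other's reads. Symbols and lengths came from GENCODE M21, which matched 42462 identifiers and left 1167 unmatched.

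The counts were tested with edgeR 4.0.16 in R 4.3.3 (TMM scaling, edgeR's filter on low counts by group, 1 quasi-likelihood fit over all 8 groups, 10578 genes tested). Benjamini-Hochberg adjustment ran over all tested genes in each of 19 comparisons, with a threshold of 0.05. Where a gene had 2 guides, their mean was compared. Standard errors (SE) are approximate, being the size of the log2 fold change divided by the square root of edgeR's F. Log2 CPM for correlations used a prior count of 2. The script was also run on simulated counts, from which no value is given. The genes described and the lists beside them were chosen with earlier results of these data known. From each list, up to 4 called genes with the smallest adjusted p in each knockout were named, with 8 further genes chosen for their known roles, and for each measured gene the 3 genes most like it. Some genes that this rule or the marker lists name are not reported here.

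As alternatives, each library was left out in turn, all genes were kept whatever their counts, only the compared groups were fitted, replicate numbers entered as a block, and DESeq2 1.42.0 gave the size factors or the whole test. A pair of further analyses, without both libraries that stood apart (with and without the block), were chosen after seeing the data. Promoter sequences are RefSeq's (GRCm38.p6), with entries for 8 of the 10 genes. Proteins and their motifs were not analysed here.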

Additional observations from a re-analysis of the deposited data

Results flagged for a closer look

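Among the 6 libraries labelled MLLT1, MLLT1 guide 1 replicate 2 stood apart from the other 5 in 2 genes. Its Fcer1g level was 575.3 CPM, whereas the other 5 lay between 389 and 439 CPM. Its Pirb level was 14.17 CPM, whereas the other 5 lay between 7.68 and 10.1 CPM. Both exceeded Dixon's 95% critical value for 6 samples. The check covered 27 groups of 6 values (9 genes in 3 knockouts), and chance flags about 1 in 20 groups. Without this library the log2 fold change against the control was 0.17 for Fcer1g and 0.88 for Pirb, neither of them called.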

How the results depend on the processing

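In the DOT1L knockout, 8 or 7 of the 9 genes were called under every alternative run, and the gene that dropped out was Fcer1g. The counts in MLLT10 and MLLT6 against the control stayed at 0, as did those between the 2 guides of a gene. In MLLT1 the count of 1 was 3 with no filter on low counts and by DESeq2, 0 with DESeq2 size factors or the compared groups alone, and 0 to 1 with single libraries left out. The MLLT1 count against DOT1L, 7, was 4 to 7 with single libraries left out. The MLLT1 count against MLLT6, 1, was 4 with no filter, 3 by DESeq2, 2 with the compared groups alone, 2 without both libraries that stood apart, and 1 to 2 with single libraries left out. The count over single guides, 0, was 3 with no filter, 1 by DESeq2 and 0 to 2 with single libraries left out. Depth limits Fcgrt, which had 16 control counts, and Fcgr1, which had 18.

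With replicate numbers as a block, the counts were 2 for MLLT1 against the control (Tyrobp and Fcgr4), 3 against MLLT6 (Tyrobp, Fcgr4 and Pilra) and 1 over single guides (Tyrobp with MLLT1 guide 1). With the block, and leaving out both libraries that stood apart, they were 4 (Tyrobp, Fcgr1, Fcgr4 and Pirb), 3 and 3. Every same-numbered correlation was over 0.1 in 6 of 28 pairs of groups, among them the control with MLLT10 guide 1, MLLT1 guide 2 and MLLT6 guide 2, where the block called 0 of 9 genes as before. In 11 of 28 each library was most like its own number, a hint from the data and not the design. Across all groups the numbers are not shown to pair the libraries. B2m, of the other Fc receptors, was called in DOT1L (count of 1) with the block, with the block and without both libraries, with no filter, and with the compared groups alone. Other paired receptors in MLLT10 numbered 2 with the block (also without both libraries), with no filter, by DESeq2 and without both libraries, and 0 to 2 with single libraries left out. All genes called in MLLT10 numbered 79 and those in MLLT1 457 with the block, and 175 and 781 with the block and without both libraries. Regulators in MLLT1 numbered 2 with the block and 4 with the block and without both libraries, and signalling genes 2 with the latter.

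Regulators in MLLT1 also numbered 3 with no filter, 0 with the compared groups alone, 0 without both libraries and 0 to 2 with single libraries left out. Signalling genes in MLLT1 numbered 0 with the compared groups alone and 0 to 1 with single libraries left out, and in MLLT6 1 with no filter. Other paired receptors in MLLT1 numbered 2 with the compared groups alone and 0 to 4 with single libraries left out. All genes called in MLLT10 (50) numbered 192 with no filter, 102 by DESeq2, 28 with the compared groups alone, 79 without both libraries and 15 to 56 with single libraries left out. All genes called in MLLT1 (273) numbered 463 with no filter, 97 with the compared groups alone and 74 to 432 with single libraries left out. In MLLT6, 80 genes were called with no filter. The cause of these differences was not tested.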
